A study of Mus musculus with 12 samples.

Results

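Trbv12-1, Trbv12-2, Trbv15 and Trbv16 are 4 variable gene segments of the mouse T cell receptor (TCR) β chain, known in the older nomenclature as members of the Vβ5, Vβ12 and Vβ11 families. They are described as a set because all of them are targets of superantigens of endogenous retroviruses, and their members were the TRBC (β chain) entries of the clonotype lists whose V region was one of the 4 genes. Of 968766 TRBC clonotypes in 12 libraries, 242542 (25.0%) used one of them, and they held 437255 of 1791590 TRBC UMIs (24.4%), a UMI being a molecular barcode that marks 1 cDNA molecule. Trbv16 (V16 in the lists) alone had 105722 of these clonotypes, against 44544 for Trbv12-1 (V12-1), 47501 for Trbv12-2 (V12-2) and 44775 for Trbv15 (V15). A further 21 entries with 24 UMIs named several Trbv12 genes, but each of them also named a gene of another family, so they were left unresolved.

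The libraries came from CD8+ T cells that were purified with magnetic beads from tumors, spleens and tumor-draining lymph nodes (tdLNs) of wild-type mice. The tumor model was the mouse oral cancer line MTCQ1-2 in syngeneic C57BL/6 hosts. All mice bore a tumor and received 3 doses, at intervals of 3 days, of control IgG, IL-10-Fc (interleukin-10 fused to an antibody Fc part), αCSF1R (an antibody that blocks the receptor of colony-stimulating factor 1) or BF10 (a fusion protein of that antibody with interleukin-10). The labels give an equivalent dose of 30 mg/kg for all components. Each of the 12 combinations of 3 tissues and 4 treatments was 1 library made from the mixed RNA of 3 mice, so mice cannot be told apart, and tissues are compared over the 4 treatments and treatments over the 3 tissues. The labels do not say whether the tissues of a treatment came from the same mice.

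A TCR β chain is assembled by joining 1 V, 1 D and 1 J segment, and the junction, the CDR3, forms the part of the receptor that touches the peptide. Superantigens act differently, because they bind the V-encoded side of the β chain whatever the CDR3 is. In mice, proviruses of the mammary tumor virus encode such proteins, and in strains that present them well on the class II molecule I-E, developing T cells with matching Vβ segments are deleted in the thymus. C57BL/6 mice do not make I-E, and T cells with Vβ5, Vβ11 and Vβ12 are largely kept in this strain.

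The 4 genes lie close together on chromosome 6 on the plus strand (GRCm38), in the order in which they are named. Trbv12-1 spans bases 41113567 to 41114067, Trbv12-2 41118864 to 41119364, Trbv15 41141211 to 41141658 and Trbv16 41151791 to 41152230. The 3′ end of the second exon of each gene is shown here, because it is the stretch that the V gene adds to the CDR3, together with the recombination signal that follows it. The sequences are from the genome, with the first 7 bases of the signal, the heptamer at which the gene is cut for joining, in capitals:
Trbv12-1, chr6:41114053-41114106, plus strand: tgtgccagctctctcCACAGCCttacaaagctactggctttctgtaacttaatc
Trbv12-2, chr6:41119350-41119403, plus strand: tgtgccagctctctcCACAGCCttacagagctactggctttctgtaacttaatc
Trbv15, chr6:41141642-41141697, plus strand: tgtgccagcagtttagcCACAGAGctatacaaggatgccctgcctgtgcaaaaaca
Trbv16, chr6:41152214-41152269, plus strand: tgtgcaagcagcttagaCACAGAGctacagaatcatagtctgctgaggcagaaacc
Both Trbv12 genes add the same 15 bases and have the same heptamer, whereas Trbv15 and Trbv16 add 17 bases and share another heptamer. None of the 4 carried the heptamer CACAGTG at this place, read on the coding strand. Of the 22 Trbv genes tested below, 21 had an identified end, and 7 of these 21 carried it (33.3%). The second exons of Trbv12-1 and Trbv12-2 were identical at 261 of 293 bases (89.1%), and those of Trbv15 and Trbv16 at 215 of 298 (72.1%). Because the CDR3 ends of the Trbv12 genes are alike, an entry is assigned to one or the other by bases upstream of the CDR3, and how reads that fit both were treated is not given in the sources used here.

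Library size set the precision of all shares. The libraries held 32784 to 210616 TRBC UMIs with at least 3 reads each, so that 3 UMIs, taken as the lower limit of detection, were 0.00142% to 0.00915% of a library. The αCSF1R tumor library was the smallest, with 2493 TRBC clonotypes, and the control IgG tumor library had 9466, against 54779 to 151480 in the other 10. Expanded clonotypes, defined here as those with at least 0.1% of the TRBC UMIs of their library, held 61.5% and 50.2% of the UMIs in these 2 tumor libraries and at most 5.11% elsewhere. Chains of γδ T cells made up 0.677% to 8.93% of all TCR UMIs, most in the αCSF1R tumor library. They were 4.96% to 6.34% in tdLNs, against 0.677% to 2.30% in spleens. The sample titles name CD8 for tumors and spleens but not for tdLNs, for which the paper states it. The part of cell composition in the differences between spleen and tdLN was not tested. The lists hold TCR chains only, so the CD8 selection cannot be checked against other genes. Confidence intervals below are 95% Wilson intervals and cover counting error only.

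Trbv16 was the most used of the 4 genes in every library, and by UMIs it ranked between 1 and 4 among 22 Trbv genes. UMIs count transcripts, so more cells and more TCR RNA per cell cannot be told apart in them. The Trbv16 share of TRBC UMIs in tumors was 8.94% with control IgG, 12.3% with IL-10-Fc, 19.5% with αCSF1R and 11.2% with BF10. In spleens the same treatments gave 10.6%, 11.3%, 10.4% and 11.0%, and in tdLNs 10.9%, 11.1%, 10.1% and 9.52%. The αCSF1R tumor library therefore stood above all 11 other libraries, which lay between 8.94% and 12.3%. By clonotypes, each counted once, the Trbv16 share was far more even: 11.6%, 12.2%, 14.2% and 11.7% in tumors, 11.1%, 11.9%, 11.3% and 11.4% in spleens and 11.2%, 11.0%, 9.89% and 9.52% in tdLNs.

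Trbv12-1 showed a tissue order that was steady across treatments outside the tumor. Its share of TRBC UMIs was 5.04%, 5.13%, 4.65% and 5.44% in spleens (control IgG, IL-10-Fc, αCSF1R, BF10) and 3.63%, 3.77%, 3.38% and 3.84% in tdLNs, without overlap. A steady order of spleen and tdLN was common: 81.8% of 22 Trbv genes had it with every treatment by UMIs and 77.3% by clonotypes. For the other Trbv genes, overlap between the libraries of 2 tissues was not counted, here and below. In tumors it was 6.10%, 4.66%, 1.96% and 5.48%, so that the tumor values spread over 3.11-fold and enclosed those of both other tissues. By clonotypes the tumor shares came to 5.79%, 5.19%, 4.53% and 5.76%, the spleen shares to 5.20%, 5.18%, 4.85% and 5.50% and the tdLN shares to 3.79%, 4.04%, 3.71% and 3.95%. Every tdLN library was then below every tumor and spleen library.

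Trbv12-2, its close relative, took 4.99%, 5.19%, 4.68% and 5.52% of TRBC UMIs in spleens and 4.53%, 4.54%, 4.04% and 4.36% in tdLNs, again without overlap. In tumors its UMI share was 3.73%, 5.18%, 2.51% and 5.41%, lowest with αCSF1R and control IgG. Counted by clonotypes, however, the control IgG tumor had the highest Trbv12-2 share of all libraries, 7.10% (6.60% to 7.63%), and the other tumors had 5.41%, 5.86% and 5.62%. Spleens had 5.02%, 5.22%, 4.87% and 5.46% of clonotypes with Trbv12-2 and tdLNs 4.62%, 4.77%, 4.20% and 4.49%.

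Trbv15 ran the other way between spleen and node. Its UMI share was 4.34%, 4.13%, 4.11% and 4.54% in spleens and 4.73%, 4.35%, 4.83% and 5.10% in tdLNs, higher in the node with each treatment. In tumors it was 2.34%, 3.96%, 6.59% and 4.32%, and the αCSF1R value was the highest of the 12. By clonotypes this excess was not seen, with 3.99%, 4.22%, 4.29% and 4.39% in tumors, 4.45%, 4.20%, 4.13% and 4.52% in spleens and 4.76%, 4.53%, 5.03% and 5.18% in tdLNs, where every library was above all tumor and spleen libraries.

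**Figure D1:**
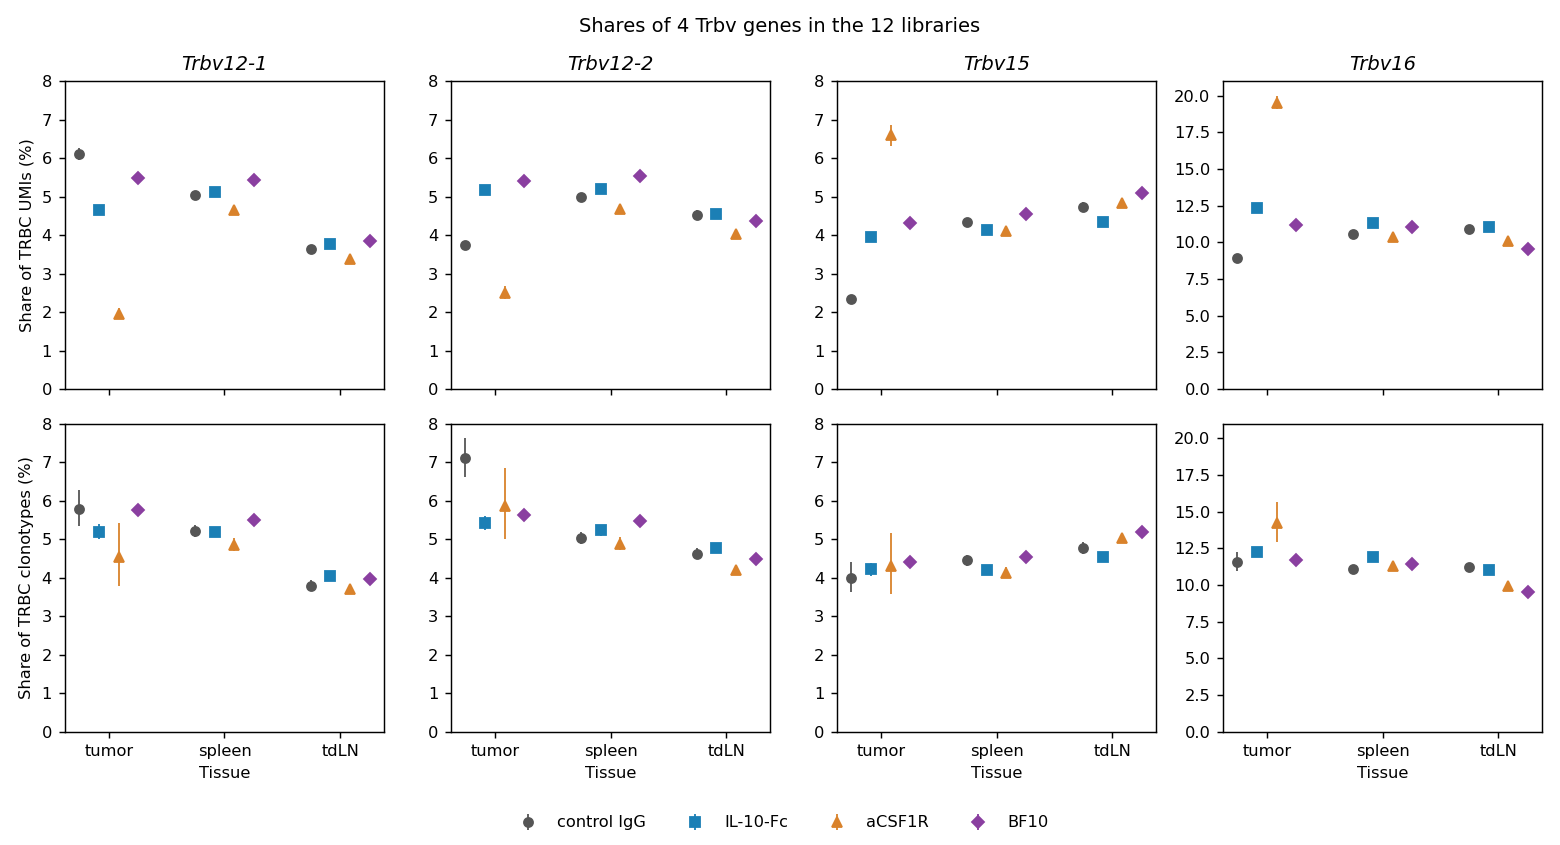
Share of TRBC UMIs (top) and of TRBC clonotypes (bottom), in percent, of each of the 4 genes by tissue. Each point is 1 library, with its treatment given by symbol and color (αCSF1R is written aCSF1R), and bars are 95% Wilson intervals. The vertical axis differs between Trbv16 and the other genes. The αCSF1R tumor library stands apart by UMIs, at 19.5% for Trbv16 and 1.96% for Trbv12-1, and less so by clonotypes, at 14.2% and 4.53%.

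Whether usage differed between tissues was tested for all 22 Trbv genes with a mean share of at least 0.1%, by an exact permutation of the tissue labels within each treatment (1296 arrangements) with Benjamini-Hochberg adjustment over the 22 genes. By UMIs, 22.7% of the genes were called at an adjusted p under 0.05 and none of the 4 was, with adjusted p = 0.375 for Trbv12-1, 0.349 for Trbv12-2, 0.671 for Trbv15 and 0.586 for Trbv16 in this permutation test. By clonotypes, 40.9% of the genes were called, and 2 of the 4 were among them: Trbv12-2 and Trbv16, both at an adjusted p of 0.0291 and both highest in tumors and lowest in tdLNs. Trbv12-1 (adjusted p = 0.0509) and Trbv15 (0.0556) missed the threshold of the permutation test. The share of 2 in 4 lies near that of all genes.

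These calls moved with the treatment of large clones and of depth. The 1296 arrangements cannot give a p below 0.00463, so over 22 genes a call needs several genes near that limit at once. When clonotypes that were 1 base from a clonotype with at least 50 times their UMIs, of the same library and the same V and J, were left out, 13 of the 22 genes and all 4 of these genes were called by clonotypes, at adjusted p values of 0.0340 to 0.0453. When expanded clonotypes were left out, 11 of 22 genes were called by the permutation test of UMIs, again with all 4, at adjusted p = 0.0255 for Trbv12-1, Trbv12-2 and Trbv15 and 0.0463 for Trbv16. When all libraries were thinned to the UMI total of the smallest, no gene was called by clonotypes, although 12 of 22, with all 4 among them, had an unadjusted permutation p under 0.05, and Trbv12-2 was at an adjusted p of 0.0509 and Trbv16 at 0.0679.

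Set side by side, spleen and tdLN differed by 0.42 ± 0.06 in the log2 clonotype share of Trbv12-1 (SD over 4 treatments), a 1.34-fold higher share in spleen. For Trbv12-2 the difference was 0.19 ± 0.08 (1.14-fold), for Trbv16 0.13 ± 0.12 and for Trbv15 -0.17 ± 0.09, which was 0.887 times the node's share. The sign was the same with 4 of 4 treatments for Trbv12-1, Trbv12-2 and Trbv15 and with 3 of 4 for Trbv16, against 77.3% of the 22 genes with 4 of 4. Tumors exceeded tdLNs by 0.45 ± 0.15 for Trbv12-1, 0.40 ± 0.19 for Trbv12-2 and 0.25 ± 0.21 for Trbv16, and differed by -0.20 ± 0.07 for Trbv15, with the same sign for all 4 treatments in each gene and in 68.2% of the 22. Between tumor and spleen, the log2 differences were 0.03 ± 0.11 for Trbv12-1, -0.03 ± 0.09 for Trbv15, 0.22 ± 0.22 for Trbv12-2 and 0.12 ± 0.15 for Trbv16, none larger than its SD. Those of Trbv12-2 and Trbv16 were above 0 with all 4 treatments, and 36.4% of the 22 genes had a single sign. By UMIs, spleen exceeded tdLN by 0.47 ± 0.02 for Trbv12-1 and 0.22 ± 0.09 for Trbv12-2, and Trbv15 differed by -0.15 ± 0.07, each with a single sign, as 81.8% of the 22 genes had. For tumor against tdLN by UMIs none of the 4 genes had a single sign (31.8% of the 22 did), and for tumor against spleen Trbv12-2 did (-0.34 ± 0.42, background 31.8%). An exact sign-flip permutation over 4 treatments cannot give a p below 0.125, and this was the p of each difference with a single sign.

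**Figure D2:**
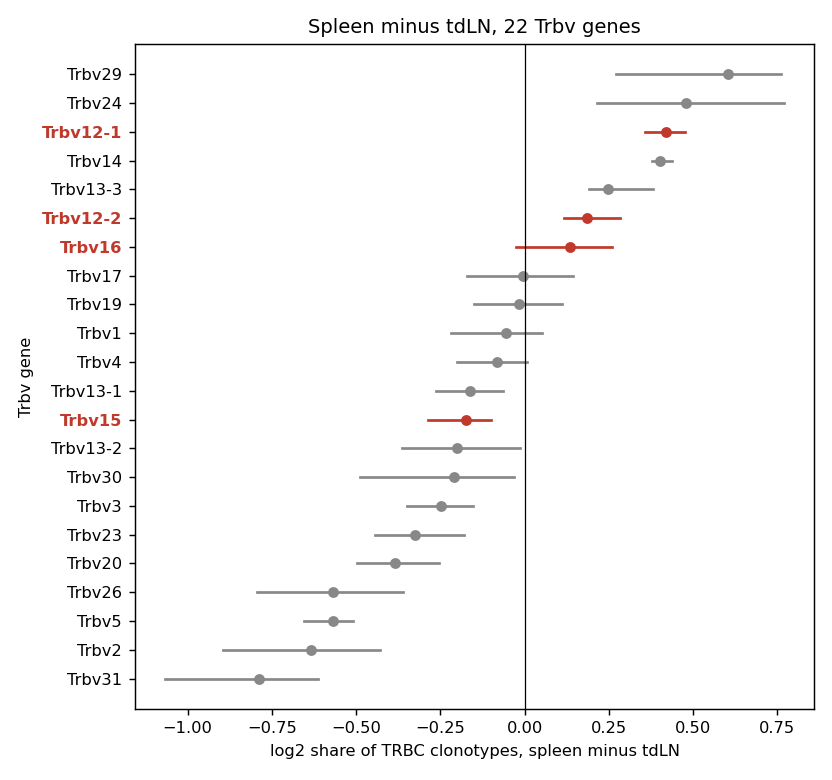
Difference in the log2 share of TRBC clonotypes, spleen minus tdLN, for the 22 Trbv genes tested. Points are means over the 4 treatments and lines run from the lowest to the highest treatment. Trbv12-1 (0.42), Trbv12-2 (0.19) and Trbv16 (0.13), in red, lie to the right of 0 and Trbv15 (-0.17) to the left, and other Trbv genes lie farther out on both sides.

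No gene was called between treatments, in a test of differences that run the same way in all 3 tissues. A difference in tumors alone, such as the Trbv16 UMI share of 19.5% with αCSF1R, rests on 1 library and could not be tested. In the exact permutation of treatment labels within tissues (13824 arrangements), 0% of the 22 genes were called by UMIs and 0% by clonotypes, with 4 and 3 genes at an unadjusted p under 0.05. By UMIs, 2 of these 4 were Trbv12-2 (p = 0.0156, adjusted 0.115), whose mean share was lowest with αCSF1R (3.74%) and highest with BF10 (5.10%), and Trbv12-1 (permutation p = 0.0382, adjusted 0.210), at 3.33% with αCSF1R and 4.92% with control IgG. In both genes the αCSF1R library was the lowest of its tissue in tumor, spleen and tdLN. Trbv15 (adjusted p = 0.826) and Trbv16 (0.919) did not pass this permutation test either.

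Other Trbv genes known as superantigen targets in mice were examined as a list, namely Trbv13-3, Trbv17, Trbv19, Trbv26 and Trbv29. Of these 5, 1 was called between tissues by UMIs, Trbv19 (adjusted permutation p = 0.0407), 0 between tissues by clonotypes, and 0 between treatments by either measure. These shares of 5 lie near or below those of all 22 genes.

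Across the 12 libraries, the UMI share of Trbv12-1 was most like that of Trbv12-2 (Pearson r = 0.78 of log2 shares) and Trbv13-3 (0.64), and that of Trbv12-2 was most like Trbv14 (0.96) and Trbv13-3 (0.95). For Trbv15 the nearest genes were Trbv30 (0.77) and Trbv24 (0.65), and for Trbv16 they were Trbv24 (0.69) and Trbv19 (0.66). These values are descriptions, since all shares in a library sum to 1 total and large clones of the control IgG and αCSF1R tumors enter them. By clonotypes the coefficients were 0.78 and 0.58 for Trbv12-1, 0.60 and 0.05 for Trbv12-2, 0.26 and -0.46 for Trbv15, and 0.74 and 0.46 for Trbv16, in the same order of partners.

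The tumor libraries differed in how the UMIs of the 4 genes were spread over clonotypes. With αCSF1R, 19 of the 76 expanded TRBC clonotypes used one of them and held 19.9% of TRBC UMIs, and with control IgG 15 of 76 did and held 7.11%. With IL-10-Fc it was 6 of 23 with 1.35%, and with BF10 1 of 3 with 0.166%. The share of the expanded clonotypes was thus 19.7% to 33.3% by number, against 27.0% to 28.9% of all clonotypes of the same libraries. In spleens no clonotype of the 4 genes was expanded, and in tdLNs 2 were, both with BF10.

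Trbv16 made up 14 of the 19 in the αCSF1R tumor, where they held 73.2% of the UMIs of the gene. Trbv15 had only 2, but 1 of them held 4.99% of TRBC UMIs (4.76% to 5.23%) and 75.7% of all Trbv15 UMIs. In the control IgG tumor, 5 expanded clonotypes held 59.5% of Trbv12-1 UMIs and 6 held 30.7% of Trbv16 UMIs. With expanded clonotypes left out, the Trbv16 share of the remaining UMIs was 12.4%, 11.7%, 13.6% and 11.1% in the 4 tumors (control IgG, IL-10-Fc, αCSF1R, BF10), and that of Trbv15 was 4.02%, 4.17%, 3.89% and 4.34%. In the same order, the Trbv12-1 share was then 4.96%, 4.91%, 4.31% and 5.50%, and the Trbv12-2 share 6.70%, 5.34%, 5.87% and 5.43%. The spread between tumors was thus smaller in each gene once expanded clonotypes of all Trbv genes were left out. In the αCSF1R tumor, expanded clonotypes held 15.4% of Trbv12-1 and 9.85% of Trbv12-2 UMIs, and those of all Trbv genes held 61.5% of TRBC UMIs. The part of large clonotypes of other genes in the low UMI shares of the Trbv12 genes was not tested.

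**Figure D3:**
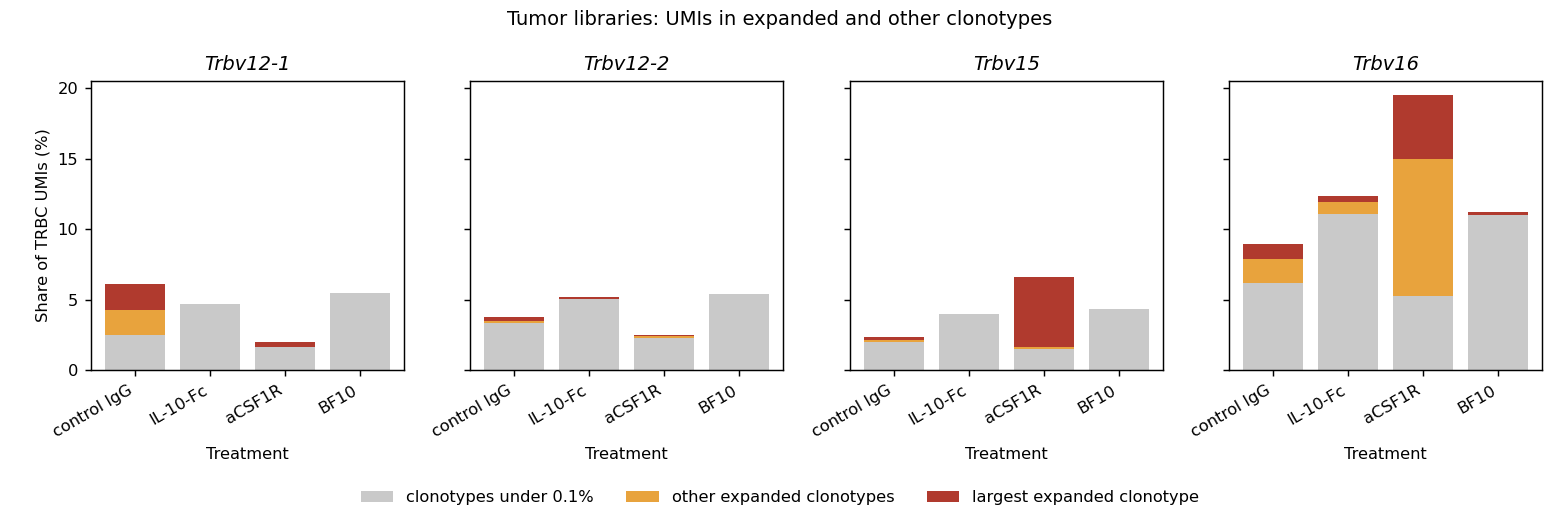
Share of TRBC UMIs, in percent, of the 4 genes in the tumor libraries of the 4 treatments, stacked as clonotypes under 0.1% of TRBC UMIs (gray), expanded clonotypes other than the largest (orange) and the largest expanded clonotype (red). In the αCSF1R tumor, Trbv16 reaches 19.5%, of which 14.3% is in 14 expanded clonotypes, and 4.99% of the 6.59% of Trbv15 is 1 clonotype.

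The CDR3s of the largest clonotypes are given with bases that match neither the germline V end nor the J segment in capitals. This inserted part holds what remained of the D segment, if anything, and the bases added at the joints. For orientation, the D segments in GRCm38 are gggacagggggc (Trbd1, chr6:41533201-41533212, plus strand) and gggactgggggggc (Trbd2, chr6:41542163-41542176, plus strand). The 4 largest of the αCSF1R tumor and the 3 largest of the control IgG tumor were:
Trbv15 with Trbj1-3, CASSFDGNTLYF, αCSF1R tumor: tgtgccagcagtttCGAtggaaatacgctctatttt
Trbv16 with Trbj2-5, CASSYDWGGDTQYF, αCSF1R tumor: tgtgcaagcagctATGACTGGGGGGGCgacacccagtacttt
Trbv16 with Trbj1-2, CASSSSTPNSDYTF, αCSF1R tumor: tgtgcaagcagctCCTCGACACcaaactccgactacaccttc
Trbv16 with Trbj2-5, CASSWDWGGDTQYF, αCSF1R tumor: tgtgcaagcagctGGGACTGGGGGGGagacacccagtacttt
Trbv12-1 with Trbj1-6, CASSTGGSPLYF, control IgG tumor: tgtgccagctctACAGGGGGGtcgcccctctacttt
Trbv12-1 with Trbj1-1, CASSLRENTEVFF, control IgG tumor: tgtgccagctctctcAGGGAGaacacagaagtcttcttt
Trbv16 with Trbj1-5, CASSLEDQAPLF, control IgG tumor: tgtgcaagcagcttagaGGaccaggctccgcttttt

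The Trbv16 clonotypes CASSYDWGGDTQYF, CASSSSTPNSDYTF and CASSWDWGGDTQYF held 4.56%, 3.21% and 2.94% of TRBC UMIs in the αCSF1R tumor, and in the control IgG tumor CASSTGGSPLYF held 1.87%, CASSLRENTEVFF 1.16% and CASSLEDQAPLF 1.06%. Insert lengths ran from 2 bases in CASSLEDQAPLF to 14 in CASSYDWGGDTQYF, in which 12 consecutive bases matched Trbd2. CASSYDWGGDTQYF and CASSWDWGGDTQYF differ at residue 5 alone. In this tumor, CDR3s of this form held 2542 UMIs, or 7.75% of TRBC (7.47% to 8.05%). Of their 11 nucleotide sequences, 3 held 2522 UMIs, 1496 with Y, 964 with W and 62 with R at residue 5, and the other 8, with 20 UMIs in all, were each 1 base from a sequence with at least 50 times their UMIs. The form was looked up after its values were seen. In the other 11 libraries it had 0 to 16 UMIs, most in the BF10 tumor, where 15 of the 16 were 1 clonotype.

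Outside these 2 tumors the largest clonotypes of these genes were small. They are shown for spleen and tdLN, again with inserted bases in capitals, for contrast with the tumor clonotypes:
Trbv12-1 with Trbj2-7, αCSF1R spleen: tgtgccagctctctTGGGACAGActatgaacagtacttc
Trbv12-2 with Trbj1-4, control IgG spleen: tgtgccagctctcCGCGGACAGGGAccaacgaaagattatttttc
Trbv15 with Trbj2-2, control IgG spleen: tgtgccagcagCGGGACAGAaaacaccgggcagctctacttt
Trbv16 with Trbj2-3, BF10 spleen: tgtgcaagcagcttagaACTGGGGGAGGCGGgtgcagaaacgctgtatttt
Trbv12-1 with Trbj2-1, BF10 tdLN: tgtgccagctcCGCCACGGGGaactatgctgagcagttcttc
Trbv12-2 with Trbj2-4, BF10 tdLN: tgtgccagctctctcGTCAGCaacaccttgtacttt
Trbv15 with Trbj2-1, BF10 tdLN: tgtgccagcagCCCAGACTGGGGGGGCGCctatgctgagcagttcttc
Trbv16 with Trbj2-7, IL-10-Fc tdLN: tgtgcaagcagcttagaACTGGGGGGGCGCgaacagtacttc

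In spleens these had 0.0168% of TRBC UMIs (Trbv12-1), 0.0163% (Trbv12-2), 0.0287% (Trbv15) and 0.0505% (Trbv16). In tdLNs they had 0.175% (Trbv12-1), 0.104% (Trbv12-2), 0.0475% (Trbv15) and 0.0827% (Trbv16). The largest tumor clonotypes of the same genes had 1.87%, 0.232%, 4.99% and 4.56%, so that Trbv12-2 had the smallest difference between tumor and node. The other largest clonotypes of a gene in a tumor that reached 0.1% had 0.302% (Trbv12-1, αCSF1R), 0.114% (Trbv12-2, IL-10-Fc), 0.125% (Trbv12-2, αCSF1R), 0.360% (Trbv16, IL-10-Fc) and 0.166% (Trbv16, BF10). The first 3 of the tdLN values are from the BF10 library, in which only 8.26% of TRBC UMIs had at least 7 reads. The Trbv15 sequence of the control IgG spleen was also the largest Trbv15 clonotype of the control IgG tumor, at 0.214%, and the largest Trbv16 sequence of the BF10 spleen was listed in the BF10 tdLN with 27 UMIs.

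Of the 41 clonotypes of the 4 genes that were expanded in a tumor, 23 were also listed in the tdLN of the same treatment, with 468 UMIs, and 8 in its spleen, with 82 UMIs. These counts and those below were not made for the other Trbv genes, so they are not known to be particular to the 4. In the 9 libraries of the other treatments together, 12 of the 41 were listed, with 286 UMIs and at most 66 in 1 library. The tdLN of the IL-10-Fc group listed all 6 of its tumor's expanded clonotypes, against 8 of 15 with control IgG, 8 of 19 with αCSF1R and 1 of 1 with BF10. Among all nucleotide clonotypes of the 4 genes, the αCSF1R tumor had 13.5% of its clonotypes in the tdLN of its own treatment and 3.61% to 5.69% in the other tdLNs. By this measure the values were closer in the other tumors. Of the control IgG tumor's clonotypes, 5.94% were in its own tdLN and 5.90% to 6.79% in the others. The values were 5.41% against 3.43% to 6.27% with IL-10-Fc and 5.72% against 3.07% to 5.40% with BF10. The tdLN libraries differed in size, with 17477 clonotypes of the 4 genes with control IgG and 34970 with BF10. As a share of the tdLN's clonotypes, the control IgG tumor's were 0.915% of its own tdLN and 0.497% to 0.614% of the others. With αCSF1R this share was 0.280% against 0.114% to 0.158%. It was 3.09% against 2.58% to 2.91% with IL-10-Fc and 4.05% against 3.87% to 4.35% with BF10.

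One Trbv16 CDR3 recurred as an expanded clonotype in tumors of 3 treatments. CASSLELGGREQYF, joined to Trbj2-7, was chosen after its values were seen, as the CDR3 with the highest mean share among the 13 that all 4 tumor libraries listed, and is described without a test. It had 1 UMI in the control IgG tumor, 1447 UMIs with IL-10-Fc (1.11%, 1.06% to 1.17%), 339 with αCSF1R (1.03%, 0.930% to 1.15%) and 355 with BF10 (0.203%, 0.183% to 0.225%). The tdLNs of these treatments had 1, 236, 14 and 110 UMIs, and the spleens 2, 13, 1 and 0, where 0 of 150372 UMIs allows a share of up to 0.00200%. In tumor and tdLN alike, the control IgG library was thus at the level of single UMIs. Counting UMIs with at least 7 reads, 72 remained in the IL-10-Fc tdLN, 0 in the αCSF1R tdLN and 2 in the BF10 tdLN.

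The same CDR3 was written by 27 nucleotide sequences, of which 6 had at least 100 UMIs and together 2486 of 2519. These 6 are shown because they hold most UMIs of this CDR3, with the bases that vary among them in capitals:
encoding 1: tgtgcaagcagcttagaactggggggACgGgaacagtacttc
encoding 2: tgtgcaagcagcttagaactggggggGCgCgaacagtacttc
encoding 3: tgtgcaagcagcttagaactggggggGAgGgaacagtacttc
encoding 4: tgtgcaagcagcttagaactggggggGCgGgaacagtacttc
encoding 5: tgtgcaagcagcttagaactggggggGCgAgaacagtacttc
encoding 6: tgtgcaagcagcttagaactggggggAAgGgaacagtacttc
All 6 keep the whole 17-base germline end of Trbv16, have 12 bases of Trbj2-7 and an insert of 13, of which 9 to 11 consecutive bases match Trbd2, and differ at 3 positions between bases 27 and 30. The D-matching stretch is thus common to all, and what varies is the end of the D match and the bases next to the J segment.

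Encoding 1 had 468 UMIs in the IL-10-Fc tumor, 64 in its tdLN and 3 in its spleen, and 0 in each of the other 9 libraries. Encodings 2, 3 and 4 had 285, 326 and 352 UMIs in the IL-10-Fc tumor, and 5, 55 and 2 in the BF10 tumor. They had 153, 10 and 7 UMIs in the IL-10-Fc tdLN and 29, 7 and 0 in the BF10 tdLN. Encoding 5 had 290 UMIs in the BF10 tumor, 73 in its tdLN and 1 in the control IgG tumor, and encoding 6 had 334 in the αCSF1R tumor and 14 in its tdLN. Each of the 6 reached 100 UMIs in the tumor of a single treatment, so that the same protein sequence was written mainly by different nucleotide sequences in the tumors of different treatments. Among CDR3s that differ from it at 1 residue, 24 were listed in tumors, and 1 was expanded by the sum of its nucleotide sequences, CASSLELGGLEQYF, with 0.110% in the control IgG and 0.159% in the αCSF1R tumor.

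**Figure D4:**
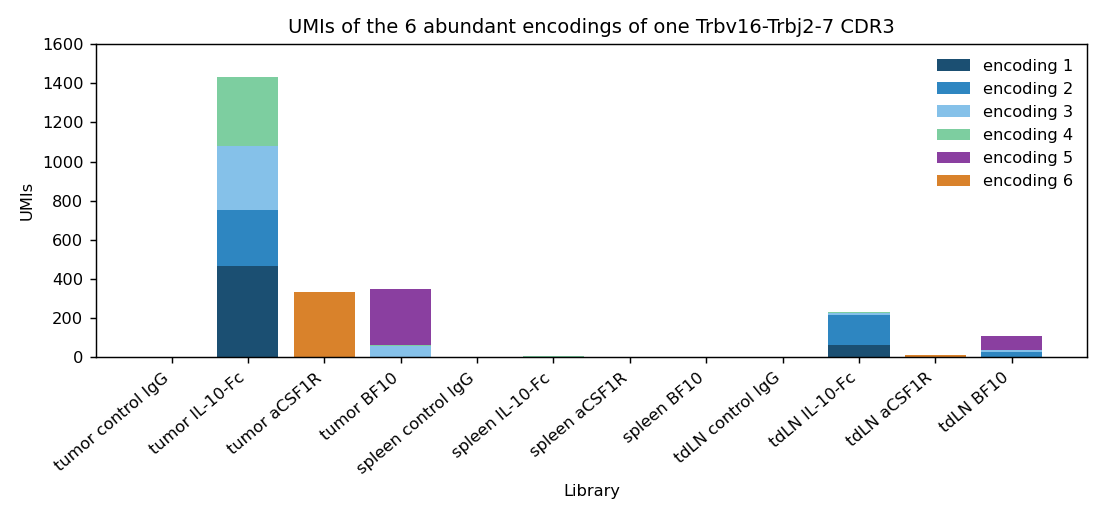
UMIs of the 6 abundant nucleotide sequences (encodings) of the Trbv16-Trbj2-7 CDR3 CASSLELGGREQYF in the 12 libraries, as stacked bars. Encodings 1 to 4 make up the IL-10-Fc tumor bar, encoding 6 the αCSF1R tumor bar (334 UMIs), and encoding 5 most of the BF10 tumor bar (290 UMIs), while the control IgG tumor has 1 UMI.

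Most receptors of the 4 genes were found in a single library, and the other Trbv genes were not counted for comparison. Of 214877 distinct nucleotide clonotypes, 91.7% were in 1 library, 564 were in at least 6 and none was in all 12. By amino acid sequence, 81.0% of 159777 were in 1 library, 2554 were in at least 6 and 8 were in all 12, 4 of them with Trbv12-1, 1 with Trbv12-2 and 3 with Trbv16. The 8 were rare, at 0.000490% to 0.0427% of TRBC UMIs, and an example is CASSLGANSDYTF with Trbv12-1 and Trbj1-2, written by 14 nucleotide sequences with 124 UMIs in all.

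The choice of J segment differed between the 4 genes. Against clonotypes of all other Trbv genes of the same library, the share of each of the 12 Trbj segments was compared over the 12 libraries by an exact sign-flip permutation test (4096 assignments), which treats the libraries as independent. Of all 264 pairs of a gene and a segment, 58.3% were called, and of the 12 segments 9 were called for Trbv12-1, 9 for Trbv12-2, 9 for Trbv15 and 10 for Trbv16, each at an adjusted permutation p under 0.05. Calls were thus common over all pairs, and the segments with the largest differences were not the same in the 4 genes. The 4 genes were not tested against each other.

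Trbv12-1 was joined to Trbj1-2 in 10.4% ± 0.73 of its clonotypes (SD, n = 12 libraries), with a range of 9.01% to 11.5%, against 5.65% for the other genes. It was joined less to Trbj1-1, in 5.29% ± 1.53, which was 4.10 points below the others (difference -4.10). Trbv12-2, with the same germline end, instead stood out for Trbj2-5, in 16.0% ± 1.96 of its clonotypes, 5.59 points above the others, while Trbv12-1 was 2.46 points below them (difference -2.46) at 8.39%. Both Trbv12 genes were joined less often to Trbj1-1. For Trbv15 the largest differences were more Trbj2-7 (25.7% ± 3.44, against 20.6%) and less Trbj2-5 (6.48% ± 1.26, against 10.9%). For Trbv16 they were more Trbj2-5 (12.7% ± 2.37, against 10.4%) and less Trbj1-6 (1.05% ± 0.25, against 2.99%). The Trbj2-5 difference of Trbv16 (2.31) rested in part on the αCSF1R tumor, where Trbj2-5 was used by 19.7% of Trbv16 clonotypes: without this library it was 1.45 ± 0.70, smaller than that of Trbj1-6 (-1.81 ± 0.17), and without close variants, described below, it was 1.75 ± 1.19. The adjusted permutation p was 0.00187 for each of these segments, except 0.00300 for Trbj2-7 with Trbv15. Every difference had the same sign in 12 of 12 libraries, apart from Trbj2-7 with Trbv15 in 11 of 12.

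**Figure D5:**
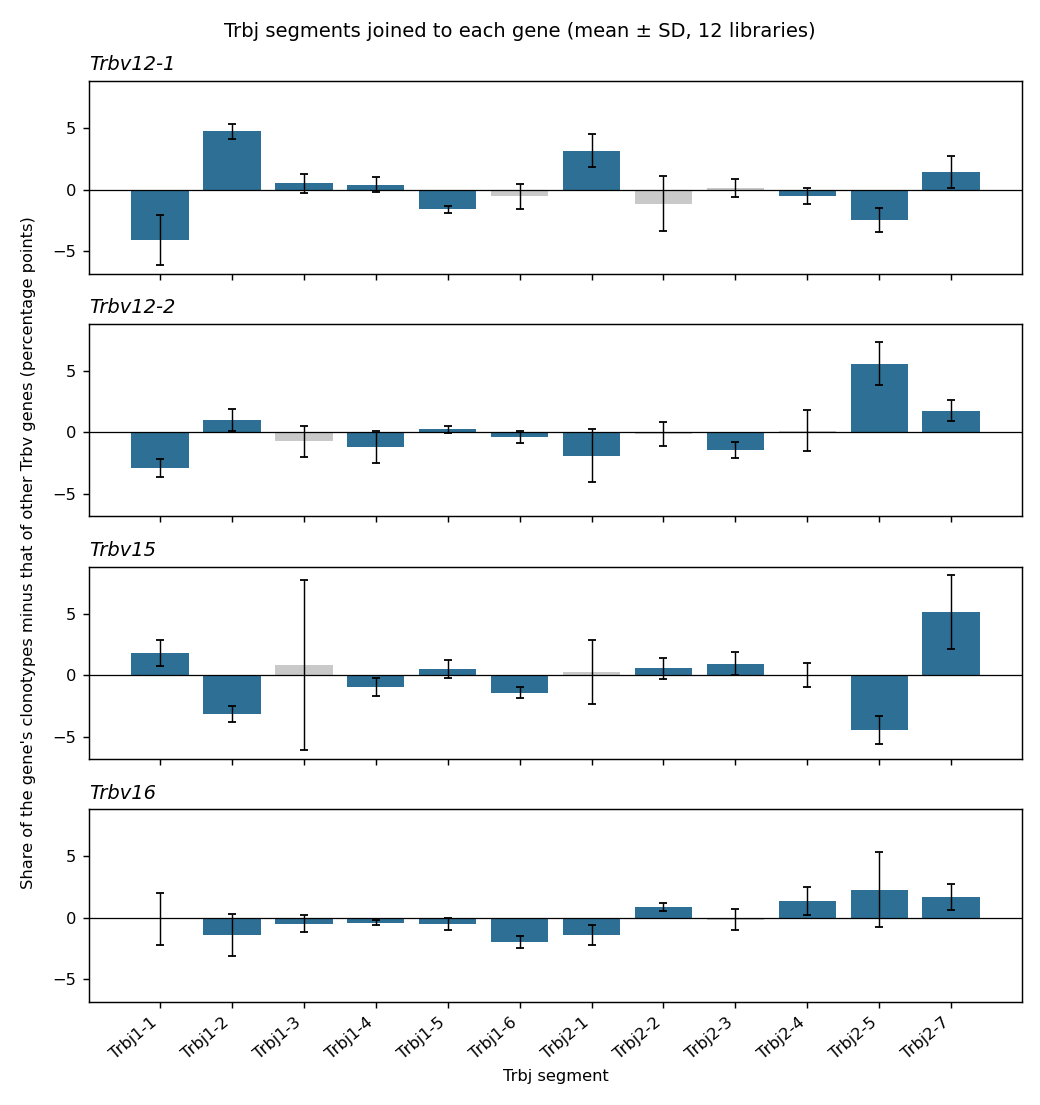
Share of the clonotypes of each gene that use a Trbj segment, minus the share among the clonotypes of all other Trbv genes of the same library, in percentage points. Bars are means and lines SDs over 12 libraries, with segments called at an adjusted p under 0.05 in blue and the others in gray. The tallest bars are Trbj1-2 for Trbv12-1 (4.74), Trbj2-5 for Trbv12-2 (5.59) and Trbj2-7 for Trbv15 (5.13), and Trbv16 stays within 2.31 points.

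Counted by cluster, the 6 segments of Trbj1 were used in 27.3% ± 1.45 of Trbv16 clonotypes, 4.73 points below the others (difference -4.73, adjusted permutation p = 0.00153), and in 27.7% ± 3.27 of Trbv12-2 clonotypes (difference -4.01, adjusted p = 0.00215). Across all 22 genes, 63.6% were called for this share. Trbv12-1 (difference -0.59, adjusted p = 0.421) and Trbv15 (-2.44, adjusted p = 0.381) were not called by the permutation test. For each of them the call turned on 1 tumor library. Without the control IgG tumor, Trbv12-1 was called (difference -1.14, adjusted permutation p = 0.00496), and without the αCSF1R tumor, Trbv15 was (difference -4.59, adjusted permutation p = 0.00143). In the αCSF1R tumor, 59 of its 107 clonotypes (55.1%) used Trbj1, and 21 of the 59, all with Trbj1-3, were 1 base from a clonotype with at least 50 times their UMIs. The share was 44.2% without these 21, and without all such close variants Trbv15 was called over the 12 libraries (difference -3.19, adjusted permutation p = 0.0430). Without the tumors, over the 8 spleen and tdLN libraries, Trbv15 was 4.41 points below the others (difference -4.41) at an adjusted permutation p of 0.00955, and Trbv12-1 0.92 points below (difference -0.92) at 0.0271.

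Such close variants were common where clones were large. In the αCSF1R tumor they were 19.6% of Trbv15 and 19.7% of Trbv16 clonotypes, and 11.4% of all TRBC clonotypes, and in the control IgG tumor 7.12% of Trbv12-1 and 4.65% of Trbv16 clonotypes, against at most 0.184% of all TRBC clonotypes in any other library. Without them the Trbv16 share of clonotypes in the αCSF1R tumor was 12.9% in place of 14.2%, and those of the other 3 tumors were 11.7%, 12.2% and 11.7%.

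CDR3 length set Trbv15 and Trbv16 apart in opposite directions. The mean CDR3 of Trbv15 clonotypes was 13.6 ± 0.12 amino acids long (SD, n = 12 libraries), 0.288 shorter than that of the other genes (difference -0.288), and the mean of Trbv16 was 14.1 ± 0.08, or 0.290 longer, both in 12 of 12 libraries (adjusted permutation p = 0.000767). Trbv12-2 was 0.0347 longer, at 13.9 (11 of 12 libraries, adjusted permutation p = 0.00215), but was not called without close variants (difference 0.0255, adjusted permutation p = 0.0776), and Trbv12-1 did not pass the test, with a difference of -0.0097 (adjusted p = 0.457). Of the 22 genes, 81.8% were called, so that 3 of 4 is no more than the background.

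Trbv15 and Trbv16 both add a germline V end of 17 bases. Trbv15 clonotypes had lost 4.17 ± 0.05 bases of it and kept it whole in 2.90% ± 0.65, whereas Trbv16 clonotypes had lost 3.00 ± 0.06 and kept it whole in 17.2% ± 0.82 (means and SDs over 12 libraries). The Trbv12 genes, with 15 bases, had lost 1.67 ± 0.08 (Trbv12-1) and 1.71 ± 0.06 (Trbv12-2), and kept the whole end in 37.1% ± 4.49 and 36.4% ± 2.53. Inserts averaged 10.2 bases for Trbv12-1, 10.5 for Trbv12-2, 10.2 for Trbv15 and 10.6 for Trbv16, within the range of 9.53 to 11.1 over the 21 genes. A base that matched by chance counts as germline here, and at least 6 matching bases of the V end were required. The parts of V bases lost, inserts and J segments in the differences of CDR3 length were not tested.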

How the data were processed

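CD8+ T cell RNA was sequenced with a targeted TCR kit whose adapters carry UMIs. The authors deposited, for each tissue, a list of clonotypes with whole-number counts of UMIs with at least 3 or at least 7 reads, the V and J regions and the CDR3, made in the kit maker's analysis portal with genome build mm10. The same lists hold frequency columns as a fraction, which the authors deposited and which were not used here. Libraries held 32784 to 210616 TRBC UMIs with at least 3 reads, the count used here.

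A clonotype was a row with 1 V gene. Shares were tested on the scale log2((UMIs + 0.5)/(total + 1)) for the 22 Trbv genes with a mean share of at least 0.1%, by exact permutation within blocks, two-sided, with Benjamini-Hochberg adjustment, with numpy 2.4.6 and scipy 1.17.1 (Python 3.11.15). The blocks were the treatments for the tissue test and the tissues for the treatment test. Each library is a pool of 3 mice and none is repeated, so no p-value measures the spread between pools of the same tissue and treatment. The p-values of the tissue test measure how steady a difference is over the treatments, and those of the treatment test how steady it is over the tissues. Those of J segments and CDR3 length measure how steady a gene's difference from the others is over the libraries. The procedures were tested on simulated data. Germline sequences were read from GRCm38 with samtools 1.23.1.

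The genes and lists were chosen with earlier results of these data known. The clonotypes named were, by rule, the largest of each gene in each tissue, and the other Trbv genes named were the 2 most alike and those of the list of superantigen targets. The form CASSxDWGGDTQYF, the CDR3 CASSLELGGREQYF, the CDR3s found in all libraries and the other large clonotypes were chosen after their values were seen. Alternatives were UMIs with at least 7 reads, clonotypes with at least 2 UMIs, no expanded clonotypes, no filter on mean share, percent in place of log2 shares, rows of several V genes shared among them, no replicate block, leaving out each treatment or tissue, clonotypes defined by amino acids, J segments weighted by UMIs, and spleen and tdLN libraries only. Thinning, the exclusion of close variants and leaving out each library were added after the data were seen.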

Additional observations from a re-analysis of the deposited data

Results flagged for a closer look

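In 3 genes the clonotype share moved in opposite directions between tissues under the same treatment, with 95% Wilson intervals of the treated and control IgG libraries apart in both tissues. Such opposite moves were not counted for the other Trbv genes, so they are not known to be particular to the genes described here. With 1 library per tissue and treatment, the difference between the tissues was not tested, and the intervals cover counting error only. With BF10, the Trbv12-2 share was below that with control IgG in tumor (difference -1.48 percentage points) and above it in spleen (0.442). With αCSF1R, the Trbv15 share was below control IgG in spleen (difference -0.321) and above it in tdLN (0.268). With αCSF1R, the Trbv16 share was above control IgG in tumor (2.66) and below it in tdLN (difference -1.35). In the αCSF1R tumor, 19.7% of Trbv16 clonotypes were 1 base from a clonotype with at least 50 times their UMIs. Without such clonotypes the Trbv16 share was 12.9% (11.6% to 14.4%) in the αCSF1R tumor and 11.7% (11.0% to 12.4%) in the control IgG tumor, a difference of 1.21 points, and the intervals overlapped. The other 5 differences kept their sign and their intervals stayed apart. In the αCSF1R tdLN, 10.4% of TRBC UMIs had at least 7 reads, against 40.9% in the control IgG tdLN, and the part of this in the tdLN differences was not tested.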

How the results depend on the processing

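By tissue and UMIs, 5 of 22 genes were called, 3 when UMIs needed at least 7 reads or clonotypes at least 2 UMIs, 11 (with 4 of the 4 genes) without expanded clonotypes, and 0 of 28 with no filter on mean share. By tissue and clonotypes, all 4 genes were called without close variants, and 0 of 22 genes, 0 of the 4, were called in libraries thinned to equal UMIs. Without the replicate block, which here is the treatment shared by 3 tissues, 4 of the 4 genes and 12 of 22 were called by clonotypes, with adjusted p = 0.0129 for Trbv12-1 and 0.0133 for Trbv15 in the permutation test, and the calls of the 4 genes were the same in the other 3 tests of tissue and treatment. Leaving out each treatment in turn gave 0 to 0 calls by UMIs and by clonotypes among the 22 genes and among the 4, and the adjusted permutation p ranged from 0.102 to 0.153 for Trbv12-2 and from 0.111 to 0.204 for Trbv16, but 216 arrangements cannot give a p below 0.0278. By treatment and clonotypes, 1 gene was called with at least 7 reads and 2 of 28 with no filter. The Trbj1 share was called for 14 of 22 genes, and for 7 when clonotypes were weighted by UMIs. With clonotypes defined by V, J and amino acids, expanded clonotypes of the 4 genes held 7.47% of TRBC UMIs in the control IgG tumor and 0.203% in the BF10 tumor. Leaving out each library in turn gave 14 to 18 calls for the Trbj1 share and 17 to 20 for CDR3 length. Signs changed only for results that were not called before or after. Weighted by UMIs, the differences of Trbv12-1 became 0.694 points for the Trbj1 share and 0.00212 amino acids for CDR3 length. By treatment and UMIs, the difference between BF10 and control IgG changed sign for Trbv12-1 with at least 7 reads (adjusted permutation p = 0.344), with at least 2 UMIs per clonotype (0.166), on the percent scale (0.185) and without spleens (0.655) or tdLNs (0.611), for Trbv12-2 without expanded clonotypes (0.692), and for Trbv16 with at least 7 reads (0.957), without expanded clonotypes (0.738) and without tumors (0.593). By treatment and clonotypes it did so for Trbv12-1 with at least 2 UMIs (adjusted permutation p = 0.396), Trbv12-2 without tumors (0.583) and Trbv16 without tdLNs (0.705). Over the tissues left out in turn, these adjusted p values ranged from 0.382 to 0.655 (Trbv12-1) and 0.593 to 0.863 (Trbv16) by UMIs, and from 0.583 to 0.825 (Trbv12-2) and 0.705 to 0.733 (Trbv16) by clonotypes. In the αCSF1R tumor, Trbv12-1 and Trbv15 rest on 113 and 107 clonotypes.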
